A study of Mus musculus with 3 samples.

Results

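The galectin genes that BMDMs transcribe and the gene of a galectin-binding glycoprotein were followed through exposure to borrelial lipoproteins. The members are *Lgals1*, *Lgals3*, *Lgals8*, *Lgals9* and *Lgals3bp*, found by gene symbol, and they make 5 of the 32285 genes counted. RNA of single bone marrow-derived macrophages (BMDMs) of C3H/HeN mice was captured in droplets and sequenced from the 3′ end, with a unique molecular identifier (UMI) marking each transcript. There is 1 library per condition. Ctrl cells received PBS and were collected at 4 hours. LP1 and LP4 cells received 1 µg/mL of lipoproteins of *Borrelia burgdorferi* (*Bb*LP) for 1 hour and 4 hours. All cells came from female mice of 6 to 8 weeks, whose marrow was grown in medium conditioned by L929 cells. The paper describes pooled marrow for its cultures in general, and for this experiment cells of 3 mice that were treated independently. The cells of 3 wells were pooled before 5000 cells were targeted per library. No condition therefore has a replicate, no test between conditions was made, and every interval below is a 95% interval that covers counting error only.

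Galectins are small lectins without a signal peptide that bind β-galactosides on glycoproteins and glycolipids. They act outside cells, where they cross-link surface receptors, and inside, where they gather on vesicles whose inner glycans have become exposed by membrane damage. Galectin-1 is a prototype galectin with a single carbohydrate-binding domain, galectin-3 is the chimera type that joins such a domain to a self-associating tail, and galectin-8 and galectin-9 are tandem-repeat galectins with a pair of different domains. Galectin-3 is made in large amounts by macrophages. *Lgals3bp* encodes a secreted, heavily glycosylated protein of the scavenger receptor cysteine-rich family that galectin-3 binds. *Lgals9* and *Lgals3bp* are known to respond to interferon in several cell types.

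On GRCm38 (GENCODE vM21), *Lgals1* lies at chr15:78926725-78930465 on the plus strand and *Lgals3* at chr14:47367751-47386160 on the plus strand. *Lgals9* lies at chr11:78962974-78984946 and *Lgals3bp* at chr11:118392751-118402092, both on the minus strand. *Lgals8*, at chr13:12439415-12464944 on the minus strand, overlaps *Heatr1* on the other strand, and the strand setting of the counting is not given in the sources used here. None of the other members overlaps another annotated gene.

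Since *Lgals9* and *Lgals3bp* are the members with a link to interferon, the promoters were searched for letters that interferon-regulated factors are known to bind. RefSeq promoter windows (GRCm38.p6, 250 bases before and 50 bases from the start) were at hand for 4 of the 5 members, all except *Lgals1*. The core of the interferon-stimulated response element, GAAANNGAAA or TTTCNNTTTC on the other strand, was in 3.44% of 32851 promoter windows of this length. Its shorter part, AANNGAAA or TTTCNNTT, was in 23.9% of them, and every longer match contains this shorter one. The *Lgals9* window held the longer element at 2 places, from 55 to 46 bases before the start and from 16 to 25 bases after it, both in the orientation of the other strand. It also held the shorter element alone 151 to 144 bases before the start. The *Lgals3bp* window held only the shorter element, 14 to 7 bases before the start. The *Lgals3* and *Lgals8* windows held neither, and none of the 4 held TTCNNNGAA, the letters of the gamma-activated site, which were in 8.30% of all windows. These *Lgals3* (chr14:47373610-47373909) and *Lgals8* (chr13:12461689-12461988) windows lie inside the annotated genes, at an inner start, and the outermost starts were not searched. Their lack of a match is therefore not set against the matches of *Lgals9* and *Lgals3bp*, whose windows span the outer end of the gene. The stretches of 30 bases with the matches in capitals are shown 5′ to 3′ on the strand of the gene, because these 2 genes differed most between cells low and high in interferon genes in the data below.
Lgals9, upstream, chr11:78984960-78984989: tgacatcagcTTTCTTTTTCtctagacact
Lgals9, downstream, chr11:78984890-78984919: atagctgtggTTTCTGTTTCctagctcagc
Lgals9, shorter element, chr11:78985057-78985086: cagagcacaggAAGGGAAAgtcaaggcaga
Lgals3bp, shorter element, chr11:118401955-118401984: tgttttctgaaAATCGAAActaggtgaggt
A match describes the letters of the window and does not show that a factor binds there.

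The libraries held 35749924 to 64787139 UMIs in 5039 to 6123 barcodes, of which 4670 to 6071 were kept as cells. Depth rose with treatment, with medians of 5133, 9343 and 11784 UMIs per kept cell of Ctrl, LP1 and LP4, and the mitochondrial limit removed 18, 43 and 273 barcodes in the same order. Levels are therefore given as CPM, the UMIs of a gene per 1000000 UMIs of all kept cells of a library. A gene was called higher or lower between 2 libraries at 1.5-fold or more, among genes of at least 10 CPM in the higher library.

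*Lgals3* in Ctrl was at 9667 CPM (9635 to 9699), against 9164 CPM (9138 to 9190) in LP1 and 6695 CPM (6675 to 6716) in LP4. The level was close in Ctrl and LP1 and lower in LP4. The log2 ratio to Ctrl was -0.08 in LP1 (-0.08 to -0.07) and -0.53 in LP4 (-0.54 to -0.52), and LP4 to LP1 gave -0.45. The first of these shrank to -0.0013 with median-of-ratios scaling, so no direction is given for *Lgals3* at 1 hour. Its ratio of LP4 to Ctrl lay just inside the 1.5-fold line.

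The Ctrl level of *Lgals1* was 2264 CPM (2248 to 2280), that of LP1 1509 (1499 to 1520) and that of LP4 1334 (1325 to 1343). Most of the difference was already present at 1 hour, where the log2 ratio to Ctrl was -0.59 (-0.60 to -0.57), beside -0.76 (-0.78 to -0.75) at 4 hours and -0.18 between LP4 and LP1. In the comparison of LP1 with Ctrl, 2.72% of the genes tested had a lower ratio than *Lgals1*, beside 16.0% in that of LP4 with Ctrl. The value at 1 hour lay on the 1.5-fold line itself, with a fold of 0.667, and the call was lost without the mitochondrial limit, with TMM or median-of-ratios scaling, in macrophage-like clusters alone and without cells of high doublet score. The call at 4 hours was lost with median-of-ratios scaling, at -0.56.

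*Lgals9* went from 99.0 CPM in Ctrl (95.8 to 102) to 76.9 in LP1 (74.5 to 79.3) and 188 in LP4 (185 to 192). It was lower than Ctrl at 1 hour and the highest of the 3 libraries at 4 hours. The log2 ratio to Ctrl was -0.36 (-0.43 to -0.30) in LP1 and 0.93 (0.87 to 0.98) in LP4, a fold of 1.90. Between LP4 and LP1 it was 1.29 (1.24 to 1.34), a fold of 2.45, and 94.0% of the genes tested had a lower ratio. For LP4 against Ctrl this share was 88.3%.

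*Lgals8*, the galectin best known for its part in the capture of damaged vesicles, followed the same order at smaller size. It stood at 57.2 CPM (54.7 to 59.7) for Ctrl, 49.2 CPM (47.3 to 51.1) for LP1 and 78.6 CPM for LP4 (76.4 to 80.9). The log2 ratio was -0.22 (-0.30 to -0.13) for LP1 to Ctrl, 0.46 (0.38 to 0.53) for LP4 to Ctrl and 0.68 (0.61 to 0.75) for LP4 to LP1. The ratio of LP4 to Ctrl missed the 1.5-fold line but passed it with TMM scaling, at 0.63, and with median-of-ratios scaling, at 0.67.

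*Lgals3bp* had 162 CPM (158 to 166) in Ctrl, fewer in LP1 with 112 CPM (109 to 115), and 147 CPM (144 to 151) in LP4, so the lowest library was LP1. The log2 ratio to Ctrl was -0.53 (-0.58 to -0.48) in LP1, and 3.63% of the genes tested had a lower ratio. At 4 hours the ratio to Ctrl was -0.13 (-0.18 to -0.09), which became 0.036 with TMM and 0.073 with median-of-ratios scaling, and no direction is given for it. Between LP1 and LP4 it was higher in LP4, at 0.40 (0.35 to 0.44).

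**Figure D1:**
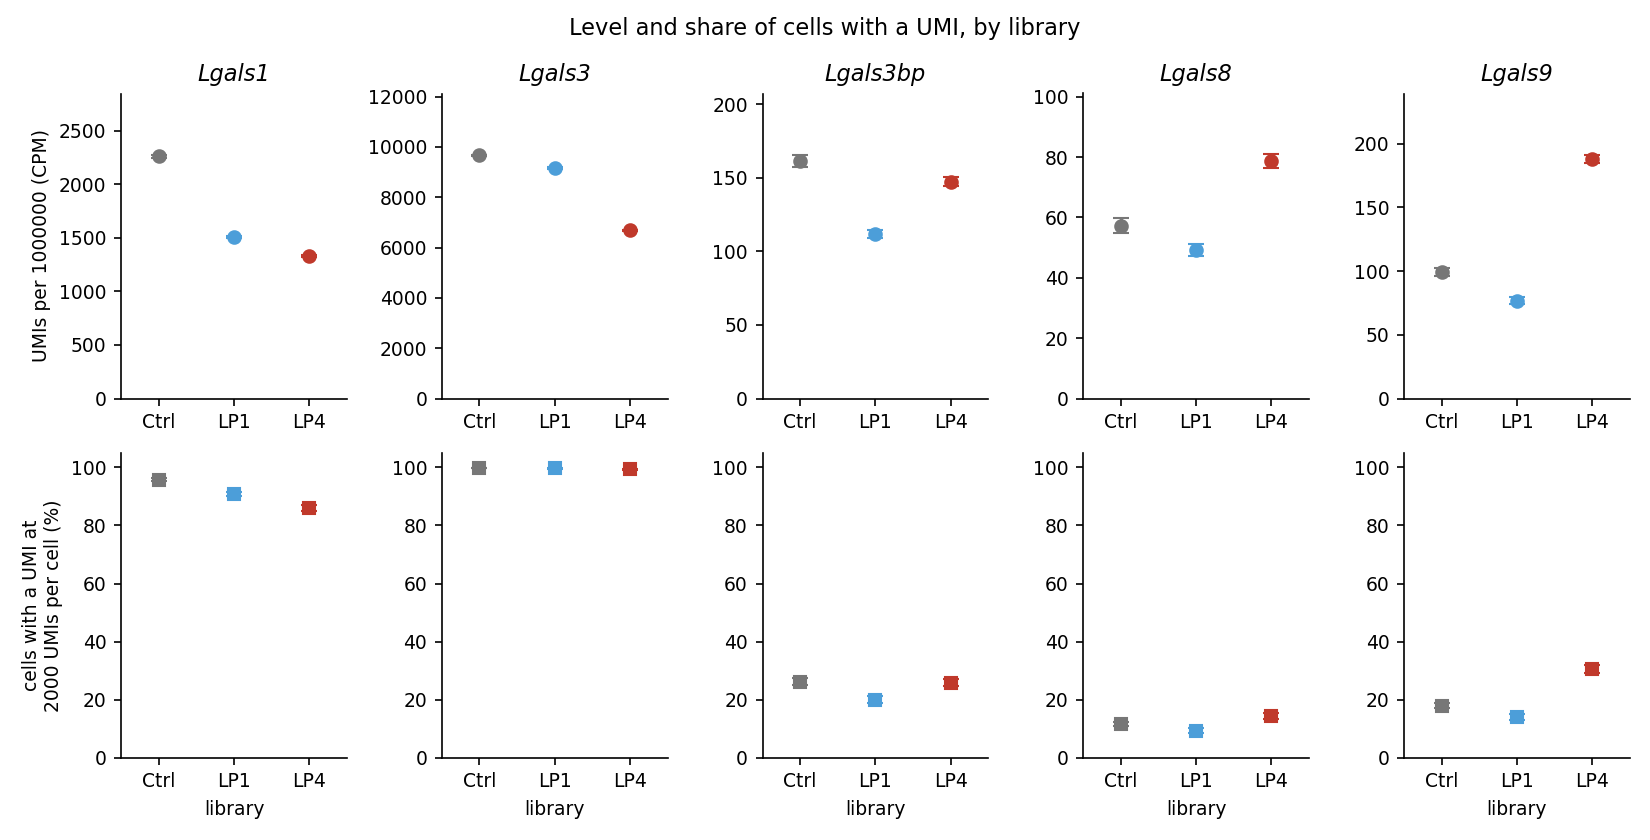
Each column is a gene. Upper panels give UMIs per 1000000 (CPM) with the exact Poisson 95% interval and lower panels the percent of cells with a UMI after thinning to 2000 UMIs per cell with the exact binomial interval, for Ctrl, LP1 and LP4. *Lgals1* and *Lgals3* are highest in Ctrl and lowest in LP4, while *Lgals8* and *Lgals9* are lowest in LP1 and highest in LP4.

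All 5 members passed the minimum level. Their median log2 ratio of LP1 to Ctrl was -0.36, beside -0.02 for all 7747 genes tested. Ratios below 0 were thus common among all genes, but mostly not as low as those of each member. A lower ratio than that of *Lgals1*, *Lgals3bp*, *Lgals9*, *Lgals8* and *Lgals3* was found for 2.72%, 3.63%, 9.80%, 21.6% and 41.3% of the genes tested. No direction is given for *Lgals3* among the members. Past 1.5-fold, 0 of the 5 were higher in LP1 than in Ctrl, where 4.12% of the genes tested were, and 1 was lower (*Lgals1*), where 2.74% were. In LP4 against Ctrl 1 was higher (*Lgals9*), beside 20.2% of 8019 genes, and 1 was lower (*Lgals1*), beside 23.0%, with a member median of -0.13 against -0.07. In LP4 against LP1 2 were higher (*Lgals8* and *Lgals9*), beside 16.6% of 7956 genes, and 0 were lower, beside 18.1%, with a median of 0.40 against -0.06. The comparisons share libraries. TMM and median-of-ratios scaling moved the median log2 ratio of all genes tested in LP4 against Ctrl by 0.17 and 0.21, and with them 61.9% and 64.9% of the genes past 1.5-fold were higher in LP4, beside 46.7% with CPM.

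**Figure D2:**
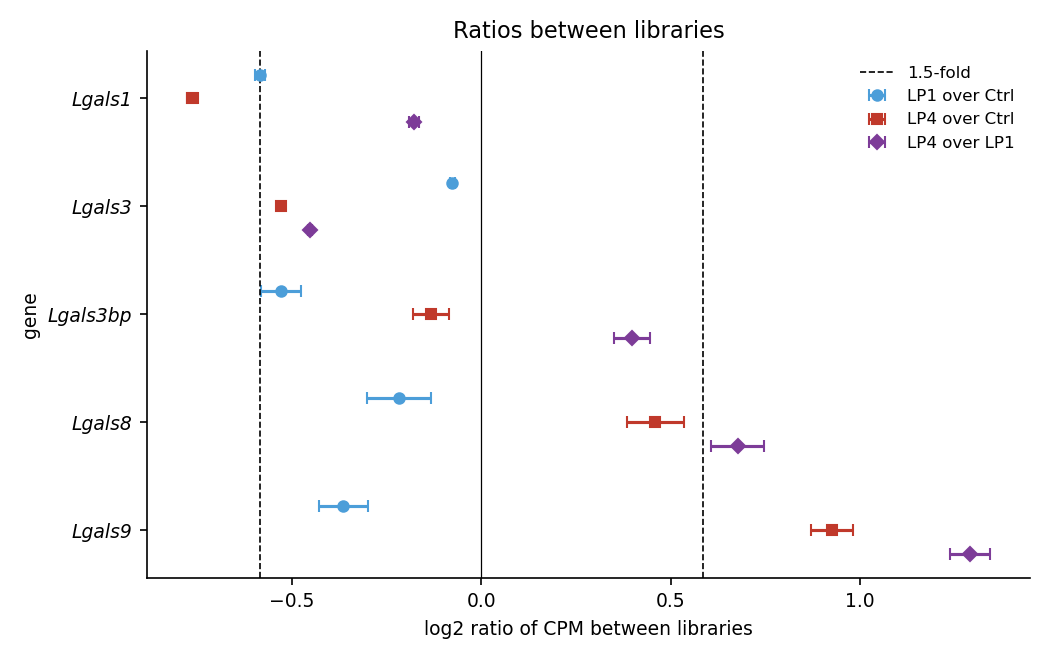
The x axis is the log2 ratio of CPM between 2 libraries, with the exact 95% interval for counting error, for each gene on the y axis. Dashed lines mark 1.5-fold. *Lgals9* in LP4 lies to the right of the line against both other libraries, and *Lgals1* in LP4 to the left against Ctrl. The ratios of LP1 over Ctrl lie left of 0, that of *Lgals3* close to it. The median over all genes tested, not drawn, is -0.02.

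Shares of cells with a UMI were compared at an equal depth of 2000 UMIs, drawn at random from each cell, and 122, 13 and 45 shallower cells of Ctrl, LP1 and LP4 were set aside. *Lgals3* was seen in 99.8%, 99.7% and 99.3% of Ctrl, LP1 and LP4 cells. In neutrophil-like cells (described below), whose level of it was far lower, it was seen in 66.7%, 52.4% and 64.3%, so this share does not measure the level. *Lgals1* was seen in 95.7% (95.1 to 96.2) of Ctrl, 90.9% (90.05 to 91.7) of LP1 and 86.1% (85.1 to 87.1) of LP4 cells. *Lgals9* was seen in 18.0% (17.0 to 19.0), 14.0% (13.0 to 15.0) and 30.7% (29.4 to 32.1), a difference in the same direction as its CPM. Without thinning these shares were 39.3%, 48.8% and 82.4%, where LP1 stood above Ctrl against the CPM. *Lgals3bp* was seen in 26.2%, 20.1% and 25.8% and *Lgals8* in 11.6%, 9.32% and 14.4% of thinned cells (53.8%, 61.2% and 76.3%, and 26.7%, 37.0% and 57.3%, unthinned).

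The spread of the members between cells was read at the same depth. At 2000 UMIs a Ctrl cell held a median of 16 *Lgals3* UMIs, with 10th and 90th percentiles of 7 and 33. In LP4 the median was 11 and these percentiles were 4 and 22. The variance of *Lgals3* was 6.07, 5.59 and 4.96 times its mean for Ctrl, LP1 and LP4, while counting alone gives a variance near the mean. For *Lgals1* the ratio was 1.81, 1.46 and 1.59, and for the other 3 members it lay between 1.01 and 1.11 in every library. These 3 had means of 0.098 to 0.38 UMIs per cell, where the ratio stays near 1 even if levels differ widely between cells. It therefore cannot show whether they spread less than *Lgals1* and *Lgals3*. *Lgals1* and *Lgals3* counts had a Spearman correlation across thinned cells of 0.20 in Ctrl (5949 cells), 0.14 in LP1 (5052) and 0.23 in LP4 (4625), given as a description of cells that share a library. Cells with a *Lgals9* UMI had a *Lgals3bp* UMI in 29.2%, 24.2% and 26.3% of cases in Ctrl, LP1 and LP4, beside 25.6%, 19.4% and 25.6% of the cells without one.

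To place the members among the kinds of BMDM, cells were clustered on variable genes other than the galectins and the gene lists used here. Clusters were lettered by size. Clusters A (30.7% of cells), B (19.5%), C (16.9%), D (12.9%) and E (11.3%) were macrophage-like by their markers, F (6.40%) was cycling-like, G (1.43%) was dendritic cell-like and led by MHC class II genes, H (85 cells) was neutrophil-like and led by granule genes, and I (57 cells) was stromal-like and led by collagen genes. A was led by *Egr3*, *Ms4a6b* and *Apoe*, B by *Penk* and *Clec5a*, C by *Mgll*, *Ctsk*, *Atp6v0d2* and *Mmp9*, D by *Nptx1* and *Ccnd1*, and E by *Hal*, *Iqgap2* and *Stab1*. Clusters A to G had at least 50 cells in every library and were compared. The cells of cluster A split differently between the libraries. At a finer resolution (0.8), 75.3% of its Ctrl cells and 75.7% of its LP1 cells but 3.09% of its LP4 cells fell in a cluster led by *Egr3* and *Slc9a9*, and 13.0%, 12.3% and 77.8% fell in one led by *Gbp4* and *F13a1*. The latter held 1214 LP4 cells of 1676, and leading genes were taken over the 3 libraries together. Whether A held cells of another kind in LP4, or like cells in a changed state, was not tested. Ratios between LP4 and the other libraries within A may therefore not compare like cells. Clusters B to G were not followed in this way.

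Cluster C had the most *Lgals3* in every library, 14667 CPM for Ctrl, 13552 for LP1 and 10190 for LP4, and cluster A the least, 6616, 6929 and 4575 CPM. The order of the 7 clusters, C, G, B, E, D, F and A, was the same in the 3 libraries. The ratio of the highest to the lowest cluster was 2.22, 1.96 and 2.23 for Ctrl, LP1 and LP4. At resolutions of 0.3 and 0.8 this ratio was larger in LP4 than in Ctrl, where at 0.8 the cluster led by *Egr3* was left out. Whether the gap between top cluster C and bottom cluster A changed is not read, since A may not have held like cells in LP4. *Atp6v0a1*, which encodes a subunit of the proton pump of lysosomes, shared this top and bottom cluster, with 758 CPM for C and 225 for A among Ctrl cells, 555 and 207 among LP1 cells, and 321 and 75.6 among LP4 cells. Between LP4 and Ctrl *Lgals3* was lower in 7 of 7 clusters, with log2 ratios from -0.65 in F to -0.25 in G. The value in G became -0.085 (-0.134 to -0.035) with TMM scaling. With median-of-ratios scaling it was -0.047, with an interval that includes 0 (-0.097 to 0.002). The intervals of the other clusters stayed below 0 with both scalings. At 1 hour *Lgals3* was lower in 5 clusters and higher in A (0.067, interval 0.05 to 0.08) and in G (0.13). With median-of-ratios scaling, carried into the clusters after the data were seen, the interval of E among the 5 came to include 0 (-0.016, -0.033 to 0.001). These intervals cover counting error only, while *Lgals3* varied beyond counting between cells. No difference in direction between clusters at 1 hour is therefore read.

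*Lgals1* was highest in D in every library (2901, 1805 and 1714 CPM for Ctrl, LP1 and LP4), next highest in the cycling-like cluster F (2751, 1773 and 1571) and lowest in G (1804, 1183 and 1050). It was lower than in Ctrl in 7 of 7 clusters in both treated libraries, with log2 ratios from -0.68 to -0.54 in LP1 and from -0.89 to -0.69 in LP4. The clusters rich in *Lgals1* were thus not those rich in *Lgals3*, and over the 21 values of 7 clusters in 3 libraries, on the log2 scale and with the mean of each library removed, the 2 genes had a Pearson correlation of -0.22.

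*Lgals9* and *Lgals3bp* were both highest in cluster A in every library. *Lgals9* in A was at 134, 102 and 215 CPM for Ctrl, LP1 and LP4. Its lowest clusters were G in Ctrl (64.6 CPM, from 30 UMIs), F in LP1 (59.1) and C in LP4 (168). The LP4 level of *Lgals9* exceeded that of Ctrl in 7 of 7 clusters, with log2 ratios from 0.68 in A (0.58 to 0.78) to 1.47 in G (0.90 to 2.08). The ratio in A may not compare like cells, and that in G rests on 30 Ctrl UMIs. *Lgals3bp* in A was at 210, 147 and 176 CPM in Ctrl, LP1 and LP4. In LP1 it was below Ctrl in 6 of 7 clusters, all with intervals below 0. In LP4 against Ctrl it was lower in 5 clusters, 3 of them with intervals below 0, and higher in D and in G. The log2 ratio in D was 0.12, with an interval that includes 0 (-0.02 to 0.27). In G the level went from 103 CPM (48 UMIs) to 168 (log2 ratio 0.70, interval 0.23 to 1.20). With TMM scaling all 3 intervals that had been below 0 included 0, at -0.08 in A, -0.06 in E and -0.08 in F, and with median-of-ratios scaling too, at -0.04, -0.03 and -0.04. B and C then turned above 0, at 0.10 and 0.08 with TMM, and G stayed above 0 with both (0.87 and 0.91). The interval of D lay above 0 only with these scalings (0.29 with TMM and 0.33 with median of ratios). No direction is therefore given for *Lgals3bp* in A, B, C, D, E and F at 4 hours.

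*Lgals8* was highest in A in Ctrl (84.8 CPM) and LP1 (73.1) and lowest in B in every library (40.6, 35.7 and 74.1 CPM for Ctrl, LP1 and LP4). In LP4 all 7 clusters lay between 74.1 and 85.2 CPM. At 1 hour *Lgals8* was lower than in Ctrl in 7 of 7 clusters, but with an interval below 0 in only 1. With TMM and with median-of-ratios scaling 0 of the 7 had such an interval, and D turned above 0, at 0.04 with both. The log2 ratio of LP4 to Ctrl was -0.07 (-0.21 to 0.06) in A, while in B it was 0.87 (0.69 to 1.05) and in F 0.87 (0.59 to 1.15). The value in A turned to 0.10 with TMM and 0.13 with median-of-ratios scaling, with intervals that include 0, and may not compare like cells. At resolutions of 0.3 and 0.8 every cluster with at least 50 cells in each library had more *Lgals8* CPM in LP4 than in Ctrl, but the finer cluster led by *Egr3*, with 48 LP4 cells, was not among them. No difference between A and B is read from these values. The ratio of the highest to the lowest cluster fell from 2.09 in Ctrl to 1.15 in LP4 for *Lgals8*, from 2.07 to 1.28 for *Lgals9* and from 2.03 to 1.42 for *Lgals3bp*, while it was 1.61 and 1.63 for *Lgals1*. The highest Ctrl cluster of *Lgals8*, *Lgals9* and *Lgals3bp* was A, which may not have held like cells in LP4. The lowest Ctrl cluster of *Lgals9* and *Lgals3bp* was G, with 30 and 48 UMIs. The ratios of *Lgals8*, *Lgals9* and *Lgals3bp* fell too at resolutions of 0.3 and 0.8, where at 0.8 the cluster led by *Egr3* was left out. Whether levels drew closer between like cells is therefore not read from them.

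**Figure D3:**
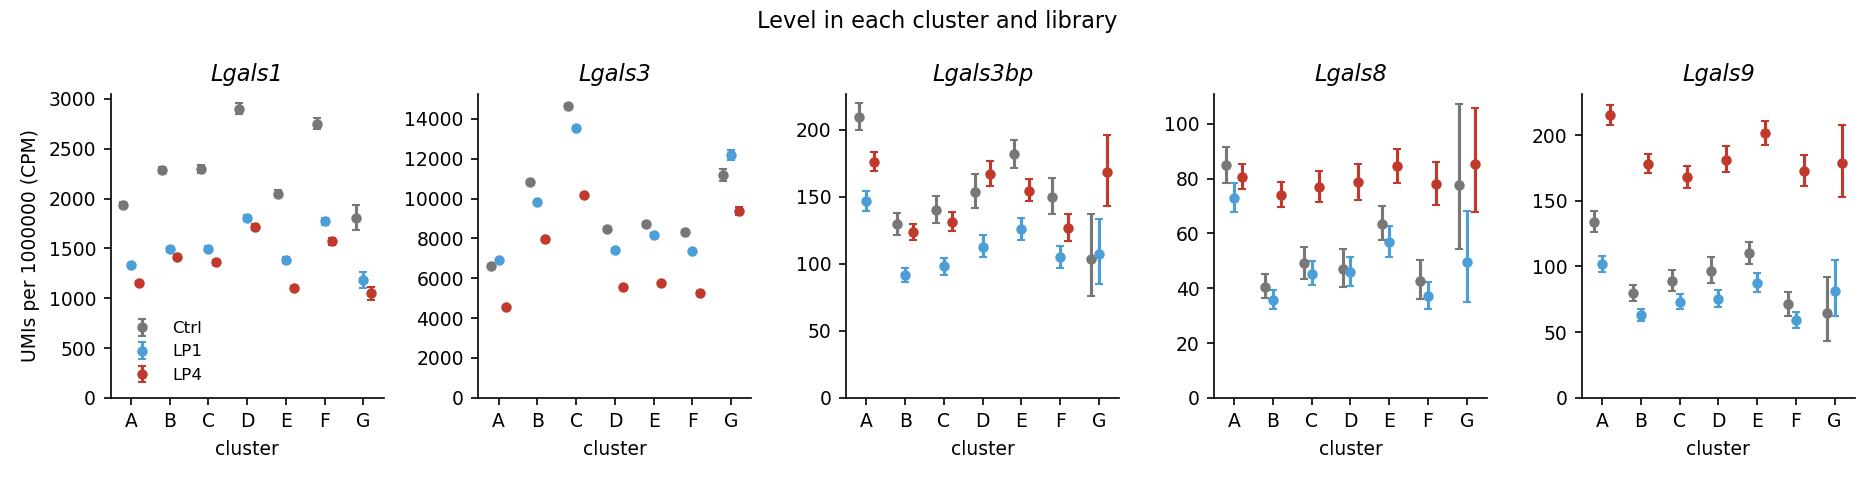
CPM of each gene (y axis, from 0, with the exact Poisson 95% interval) in clusters A to G (x axis) for Ctrl, LP1 and LP4. *Lgals3* peaks in C in all 3 libraries, and the *Lgals8* and *Lgals9* values of LP4 form a nearly level row above most of those of Ctrl and LP1.

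The levels were also read in the 2 small groups of other cells. Neutrophil-like cells (32, 25 and 28 cells of Ctrl, LP1 and LP4) held *Lgals3* at 927, 774 and 722 CPM and *Lgals1* at 287, 284 and 188 CPM, far under the levels of all kept cells. At 2000 UMIs, 4.76% of Ctrl neutrophil-like cells had a *Lgals9* UMI (1 of 21 cells, interval 0.12 to 23.8, median depth 2940 UMIs), beside 18.5% of macrophage-like cells (17.4 to 19.5, median depth 5015 UMIs). For *Lgals8* it was 0 of 21 cells, which allows a share of up to 14.3% (3 counts), beside 11.7%, so no difference was detectable for it at this depth. In LP4 10.7% of 28 neutrophil-like cells (2.27 to 28.2) and 31.2% of macrophage-like cells (29.8 to 32.6) had a *Lgals9* UMI. In LP1 the order was the other way, with 19.0% of 21 neutrophil-like cells (5.45 to 41.9) and 14.1% of macrophage-like cells (13.1 to 15.2). No difference in *Lgals9* between these cell kinds is therefore read across the libraries. The stromal-like cluster I held *Lgals3* at 20937, 17410 and 11084 CPM in the same order, above clusters A to E, but hardly any *Lgals3bp* (2, 5 and 14 UMIs, or 14.7, 25.8 and 44.0 CPM). These 57 cells did not hold together at a resolution of 0.8, where the stromal-like cluster kept 13 cells. Of the Ctrl, LP1 and LP4 cells of I, 85.7%, 83.3% and 61.1% then fell in a cluster named macrophage-like. The levels of I are therefore not read as those of stromal cells. With macrophage-like clusters alone *Lgals9* had a log2 ratio of LP4 to Ctrl of 0.89, beside 0.93 over all kept cells.

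Interferon-induced genes encode antiviral proteins and the factors that drive their own transcription. Of 15 listed genes, among them *Ifit1*, *Rsad2* and *Isg15*, 13 were found, and 12 of them passed 1.5-fold in LP4 over Ctrl, with a median log2 ratio of 3.14. *Ifit1*, whose protein binds viral RNA, went from 39.4 CPM in Ctrl and 32.0 in LP1 to 1998 in LP4, and *Cmpk2*, a mitochondrial nucleotide kinase, from 15.5 and 14.7 to 720. At 1 hour 0 of 13 passed the line in either direction, with a median of -0.33. The cells of each library were ranked by the share of their UMIs from these 13 genes and split into 5 groups of equal size. From the lowest to the highest group, *Lgals9* went from 59.2 to 175 CPM in Ctrl, from 45.9 to 138 in LP1 and from 139 to 234 in LP4, and each group in turn was above the one before. *Lgals3bp* went from 119 to 243 CPM in Ctrl, from 76.1 to 164 in LP1 and from 119 to 190 in LP4, also step by step. *Lgals8* went from 50.4 to 78.2, from 42.1 to 64.1 and from 62.7 to 91.0 CPM. In untreated cells, too, *Lgals9* and *Lgals3bp* were thus higher where interferon genes were higher. *Lgals1* and *Lgals3* did not share this order. *Lgals1* was at 2172 and 2206 CPM in the lowest and highest group of Ctrl and at 1375 and 1142 in those of LP4. *Lgals3* in LP4 was highest in the middle group (7514 CPM) and lower at both ends (5986 and 5545).

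Depth and cell kind moved with these groups. All 1215 cells of the lowest Ctrl group had no UMI of the listed genes, and their median depth was 4298 UMIs beside 4625 in the highest. The ranking was repeated with the interferon share read at 2000 UMIs per cell. The ratio of the highest to the lowest group for *Lgals9* was then 2.02, 2.26 and 1.61 for Ctrl, LP1 and LP4. It was 2.95, 3.0 and 1.68 with the unthinned ranking. For *Lgals3bp* the ratio was 1.76, 1.67 and 1.5, beside 2.04, 2.15 and 1.59. CPM came from all UMIs of the cells in both rankings. A ranking on fewer UMIs is also less exact, so the part of depth in these ratios is not read. In LP4 84.4% of the lowest group and 95.2% of the highest were macrophage-like, and the part of this in the result was not tested. The highest Ctrl group and the lowest LP4 group held interferon genes at 2659 and 2928 CPM, and *Lgals9* at 175 CPM (165 to 185) and 139 CPM (132 to 146). They are opposite ends of 2 libraries, ranked on a score with counting error. Their median depths were 4625 and 10842.5 UMIs, and 94.2% and 84.4% of their cells were macrophage-like. No comparison at an equal interferon level is therefore read from them.

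**Figure D4:**
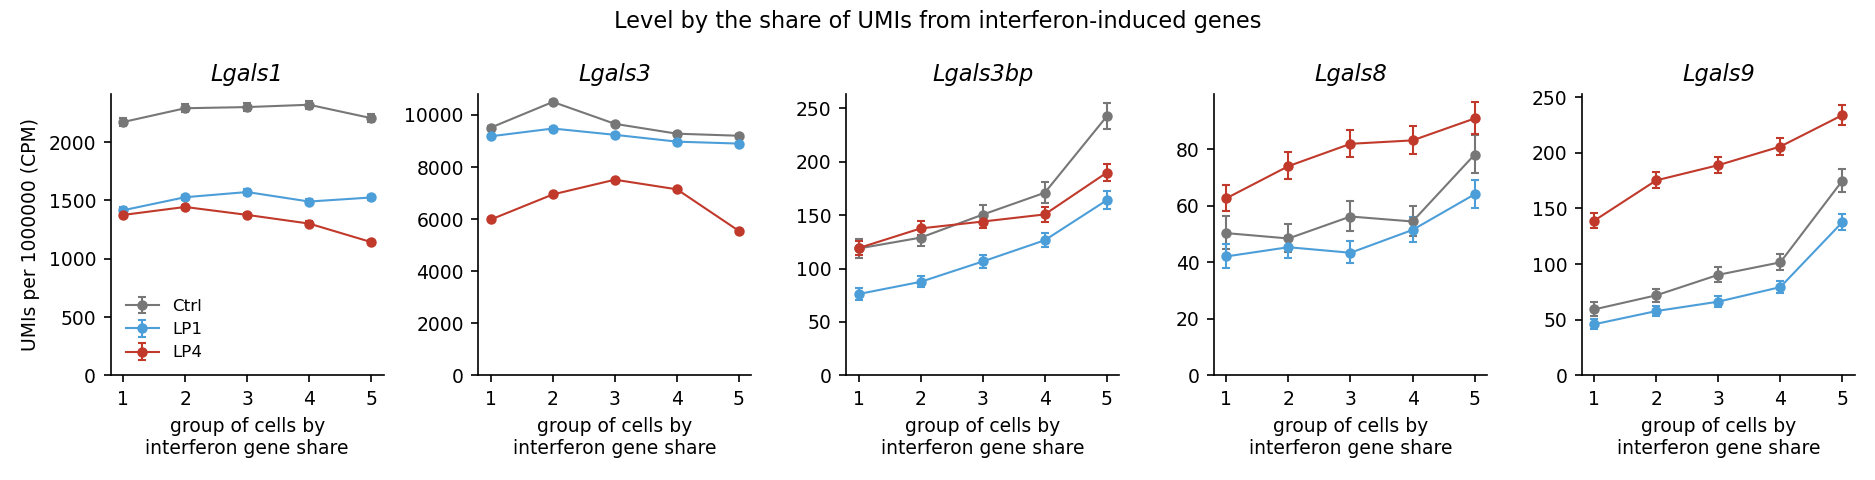
CPM of each gene (y axis, from 0, with the exact Poisson 95% interval) in 5 equal groups of the cells of a library, ordered on the x axis from the lowest (1) to the highest (5) share of UMIs from 13 interferon-induced genes. *Lgals3bp* and *Lgals9* rise from left to right in all 3 libraries, while *Lgals1* and *Lgals3* do not.

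Over the same 21 cluster values, with the mean of each library removed, *Lgals3bp* and *Lgals9* had a Pearson correlation of 0.84, *Lgals8* and *Lgals9* of 0.60, *Lgals1* and *Lgals8* of -0.60 and *Lgals3* and *Lgals3bp* of -0.55. Differences between libraries in the pattern over clusters, such as the different split of A in LP4, still enter these values. The correlations are descriptions, since the points share libraries and cells. Among 2480 other genes of at least 50 CPM in every library, the pattern of *Lgals3bp* was closest to that of *Irf7* (0.93), a factor that is itself induced by interferon and drives its genes, followed by *Man1a* (0.90), an enzyme of N-glycan trimming, and *Ripk1* (0.87). *Irf7* is also on the interferon list. *Lgals3* was closest to *Arl6ip5* (0.96), *Mkrn1* (0.95) and *Atp6v0b* (0.95), another subunit of the proton pump. *Lgals1* was closest to *Ndufa8* (0.97), a subunit of respiratory complex I, *Fkbp2* (0.96) and *Pfdn1* (0.96), a prefoldin subunit. *Lgals8* was closest to *Cyth1* (0.92), *Tpd52* (0.92) and *Col4a3bp* (0.92), a ceramide transporter, among 2481 genes. *Lgals9* was closest to *Dnajc13* (0.87), *Lgmn* (0.85), a lysosomal protease, and *Nucb1* (0.84). These neighbours depend on the clusters. At a resolution of 0.8, 1 of the 3 named genes remained among the nearest 3 for *Lgals1*, *Lgals3*, *Lgals3bp* and *Lgals8* and 0 for *Lgals9*, whose correlation with *Dnajc13* was then 0.44, while the first named gene of the other members kept 0.87 to 0.93.

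Other galectin genes had few UMIs. *Lgalsl*, which encodes a galectin-like protein, had 38, 86 and 40 UMIs in the order of Ctrl, LP1 and LP4, or 1.06, 1.64 and 0.65 CPM. *Lgals4* had 11, 8 and 8 UMIs, *Lgals2* 0, 4 and 2, *Lgals7* 0, 0 and 1, and *Lgals12* 1, 0 and 0. *Grifin*, a lens galectin, had 0 UMIs in all libraries, and 0 of 6071 Ctrl cells allows a share of cells with a UMI of up to 0.0494% (3 counts). At the depth reached, *Lgals1*, *Lgals3*, *Lgals8* and *Lgals9* were the galectin genes above 10 CPM in every library.

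The ligands of galectins are built by enzymes that add and cap galactose on glycans. Of 17 listed enzymes 14 reached 10 CPM, and in LP4 against Ctrl 3 were higher and 4 lower past 1.5-fold, with a median log2 ratio of -0.05. With TMM scaling 5 were higher and 3 lower, beside 26.5% and 16.3% of all genes tested. With median of ratios 6 were higher and 3 lower, beside 27.8% and 15.0%. *St6gal1*, whose α2,6-linked sialic acid is known to block binding by several galectins, was at 15.5, 13.1 and 5.33 CPM for Ctrl, LP1 and LP4 (log2 ratio of LP4 to Ctrl -1.54, interval -1.74 to -1.34). *St3gal4*, which adds α2,3-linked sialic acid, went the other way, from 9.22 and 13.1 to 43.1 CPM (2.23, 2.06 to 2.40). *B3gnt2*, which extends the poly-N-acetyllactosamine chains that galectins favour, was at 99.8, 108 and 260 CPM (1.38, 1.33 to 1.44), and *Gcnt1*, which branches O-glycans, at 40.3, 40.8 and 10.1 CPM (-2.0, -2.14 to -1.86). At 1 hour 0 of the 14 passed the line, or 1, higher in LP1, with median of ratios, where 5.59% of all genes tested were higher.

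Of 14 listed glycoproteins that galectins are known to bind, 13 were tested, and 0 were higher and 3 lower in LP4 than in Ctrl (median -0.02). With TMM and median-of-ratios scaling 2 were higher and 2 lower. Those scalings called 26.5% and 27.8% of all genes tested higher, and 16.3% and 15.0% lower. *Cd44*, the hyaluronan receptor, was at 1713, 1539 and 822 CPM for Ctrl, LP1 and LP4 (-1.06, -1.08 to -1.04). *Mertk*, a receptor for the uptake of dying cells, was at 65.2, 36.4 and 35.0 CPM, with a log2 ratio to Ctrl of -0.84 already at 1 hour and -0.90 at 4 hours. Of 20 listed genes of the response to damaged vesicles, in which galectin-3, galectin-8 and galectin-9 take part, 18 were tested, and 3 were higher and 4 lower in LP4 (median -0.15). *Tax1bp1* (284, 271 and 532 CPM in Ctrl, LP1 and LP4), an autophagy receptor, and *Atg16l1* (19.8, 20.2 and 32.7 CPM), which places LC3 on membranes, were higher in LP4. *Tfeb* (64.4, 47.9 and 15.8 CPM), the factor that drives lysosomal genes, and *Ulk1* (12.6, 11.2 and 5.94 CPM), the kinase that starts autophagy, were lower. *Calcoco2*, which encodes an autophagy receptor that binds galectin-8, had 0 UMIs in every library. On the CPM scale the shares of these 3 lists past the line in either direction were near or below those of all genes tested, so nothing is read from the lists as a whole.

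**Figure D5:**
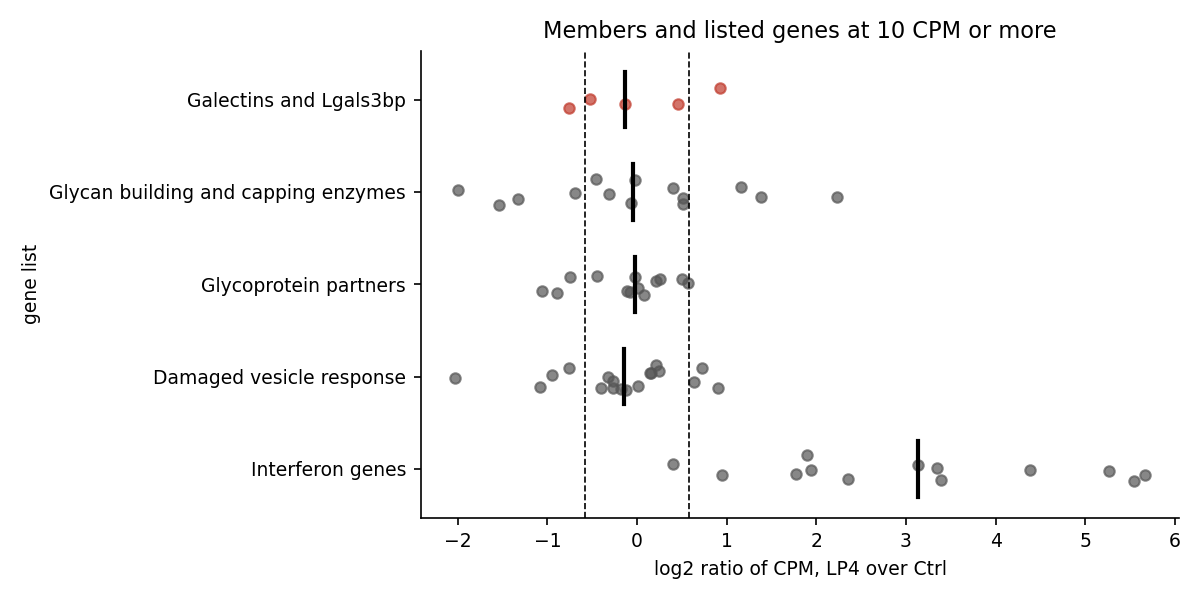
Each point is a gene of at least 10 CPM in Ctrl or LP4, the x axis is the log2 ratio of CPM of LP4 over Ctrl, dashed lines mark 1.5-fold and thick bars the median of a list. The galectins and the first 3 lists spread to both sides of 0, with medians of -0.13, -0.05, -0.02 and -0.15, and the interferon genes lie to the right, at a median of 3.14.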

How the data were processed

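Gene expression of single BMDMs was measured in 3 libraries, 1 each for Ctrl, LP1 and LP4, and samples were grouped by their GEO labels. The authors deposited raw UMI counts of each gene in each barcode, not normalized, for the barcodes that Cell Ranger (version 7.1.0 per the submitters' processing notes) called as cells on the mm10 transcriptome. Whether intronic reads were counted is not given in the sources used here, and the sums over cells depend on it. The members and gene lists were chosen with earlier results of these data known.

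Cells were barcodes that passed 500 UMIs and 500 genes and had less than 5% of UMIs from mitochondrial genes. Libraries shared 4 to 10 barcode sequences per pair. CPM was computed from the sum over cells. Intervals (95%) were exact Poisson for CPM, exact binomial for shares and exact binomial, conditional on the total, for log2 ratios. Where a share was 0, the limit given is 3 counts over the number of cells. It lies below the upper end of the exact interval, which is 16.1% for 0 of 21 cells. Calls were made at 1.5-fold where the higher library reached 10 CPM. Before clustering, the counts of a cell were set to a total of 10000 and logged. From 5255 genes of at least 200 UMIs and under 1.5-fold between libraries, without the galectins and listed genes, 2000 variable genes were centred within libraries and clipped at 10 SD, and 30 principal components, 20 neighbours and the Leiden method (resolution 0.5) gave the clusters (2 members would otherwise have passed). Clusters needed 3 markers of a class for a name. Likeness is the Pearson correlation of log2(CPM + 1) over clusters and libraries, centred within each library. The genes named are the members, other galectin genes, with *Lgalsl* the only one of at least 20 UMIs, *Atp6v0a1*, up to 2 genes in each direction with the largest LP4 to Ctrl ratio of each list among those past the line, and the 3 genes most like each member. *Calcoco2*, *Irf7*, *Isg15* and *Rsad2* were named beside them after their values were seen. Promoter letters were also chosen after the values were seen, and RefSeq sequences of GRCm38.p6 were used. No doublets were removed from the main result.

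Clustering used scanpy 1.11.5 and leidenalg 0.10.2, TMM factors edgeR 4.0.16 in R 4.3.3, and the rest scipy 1.17.1, pandas 2.3.3, numpy 2.4.6 and matplotlib 3.10.9 in Python 3.11.15. Tested on simulated data with 200 changed genes, the direction was right for 100.0% of them in each comparison, and the interval held the true ratio for 95.0% (LP1 over Ctrl), 97.5% (LP4 over Ctrl) and 92.5% (LP4 over LP1). The simulated counts were independent Poisson draws, the model that the interval assumes. The run therefore checks the computation only and does not cover spread between cells or cultures. Alternatives were no mitochondrial limit, scaling by TMM or the median of ratios, totals without mitochondrial and ribosomal protein genes, the mean of cell shares, only macrophage-like clusters, removal of the 239, 220 and 164 cells of highest Scrublet doublet score, higher CPM minima, a fold of 2, thinning to 1000 or 4000 UMIs and resolutions of 0.3 and 0.8. Carrying the scalings into clusters and following the cells of cluster A to the finer resolution were chosen after seeing the data.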

Additional observations from a re-analysis of the deposited data

Results flagged for a closer look

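*Lgals8* and *Lgals9* were below Ctrl at 1 hour and above it at 4 hours, with log2 ratios of -0.22 and 0.46 for *Lgals8* and -0.36 and 0.93 for *Lgals9*, and intervals that exclude 0 in each case. Within clusters *Lgals8* at 1 hour had an interval below 0 in 1 of 7, and in 0 with TMM or median-of-ratios scaling. The 2 time points share the Ctrl library, which was collected at 4 hours, and the difference between them was not tested over replicates. *Lgals3* in LP1 against Ctrl was higher in cluster A (0.067) and in the dendritic cell-like cluster G (0.13), while it was lower in the other 5 clusters compared, where the interval of E included 0 with median-of-ratios scaling. This was not tested either, the intervals leave out the spread between cells, and the ratio of *Lgals3* over all cells at 1 hour is close to 0. *Lgals3bp* in LP4 against Ctrl was higher in cluster G (0.70) and lower in A, E and F with intervals below 0, but with TMM and median-of-ratios scaling the intervals of A, E and F included 0 (-0.08, -0.06 and -0.08, and -0.04, -0.03 and -0.04), while G stayed above 0 (0.87 and 0.91). The value in G rests on 48 Ctrl UMIs in 81 cells, and the difference between clusters was not tested over replicates.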

How the results depend on the processing

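No paired analysis was possible because each condition is 1 library. No value with a call changed its sign. The log2 ratio of LP4 over Ctrl became -0.59 (TMM), -0.56 (median of ratios), -0.79 (CPM without mitochondrial and ribosomal protein genes) and -0.80 (mean of cell shares) for *Lgals1*. For *Lgals3* it became -0.36, -0.32, -0.55 and -0.59 in the same order, and -0.54 without the mitochondrial limit. For *Lgals3bp* it was 0.036 (TMM) and 0.073 (median of ratios), for *Lgals8* 0.63, 0.67 and, as the mean of cell shares, 0.36, and for *Lgals9* 1.09 and 1.13. The number of members lower in LP1 than Ctrl was 0 without the mitochondrial limit, with TMM and median-of-ratios scaling, in macrophage-like clusters alone, without cells of high doublet score and at a fold of 2. The number higher in LP4 than Ctrl was 2 with TMM and median of ratios and 0 at a fold of 2, and the number lower was 0 with median of ratios, 2 with the mean of cell shares and 0 at a fold of 2. Of all genes tested, 26.5% (TMM) and 27.8% (median of ratios) were higher in LP4 than Ctrl, and 16.3% and 15.0% lower. In LP1 1.79% and 1.76% were lower than in Ctrl with these scalings. In LP4 over LP1 1 was higher at a fold of 2. For the fold of 2 and for settings other than these scalings, the share of all genes is not given here. Those counts are therefore not set against all genes. Both scalings set a ratio against the middle of all genes, which shifted these values by design; the cause of the other shifts was not tested. Of the other alternative values 256 stayed within the counting interval or, for counts of genes, within 1.5-fold, and 107 did not. Depth limits *Lgals8* and *Lgals9* in cluster G, with 36 and 30 Ctrl UMIs, and single cells, of which a minority held a UMI of *Lgals3bp*, *Lgals8* or *Lgals9* at 2000 UMIs. The spread between cultures was not measured.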

Other observations

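The 273 LP4 barcodes over the mitochondrial limit entered only the alternative without that limit. They held *Lgals3* at 5978 CPM (5895 to 6062), *Lgals1* at 1331 (1292 to 1371), *Lgals9* at 172 (158 to 187), *Lgals3bp* at 114 (102 to 126) and *Lgals8* at 77.3 (68.1 to 87.4). The intervals of *Lgals1*, *Lgals8* and *Lgals9* overlap those of the kept LP4 cells, and those of *Lgals3* and *Lgals3bp* lie below them. In the 18 Ctrl barcodes over the limit *Lgals3* was at 6255 CPM and *Lgals1* at 1288, from 233 and 48 UMIs.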
